A study of Mus musculus with 8 samples.

Results

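The immunoglobulin light chain genes of the mouse were described in 8 bulk RNA sequencing libraries of splenic germinal centre B cells. Members were the genes whose symbol begins with Igkv, Igkj, Igkc, Iglv, Iglj or Iglc and whose counts summed to at least 10 over the 8 libraries. Of the 55421 genes in the count table, 178 were annotated as light chain genes, and 116 of these were members. They comprised 1 of 1 kappa constant gene (Igkc), 5 of 5 kappa joining segments, 100 of 160 kappa variable segments, 4 of 4 lambda constant genes, 3 of 5 lambda joining segments and 3 of 3 lambda variable segments. Of the 60 kappa variable segments below the minimum, 40 had no count in any library. The members just inside the minimum were Igkv11-106 and Igkv1-99 with 10 counts each and Igkv2-116 with 12, and Igkv2-137, Igkv4-56 and Igkv11-114 fell just outside with 9 counts each.

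The study compared mice with 1 intact copy of Smarca4 (Smarca4+/-) with mice with both copies (Smarca4+/+). The product of Smarca4, Brg1, is the ATPase subunit of SWI/SNF complexes, which remodel chromatin. All groups came from spleens of C57BL/6 mice aged 8 to 10 weeks, 10 days after immunization, and the cells were taken by a magnetic bead kit that selects germinal centre B cells by binding of peanut agglutinin (PNA). The 4 groups, each of 2 libraries, were Smarca4+/- CC, Smarca4+/+ CC, Smarca4+/- CB and Smarca4+/+ CB, where the labels CC and CB were read as centrocytes and centroblasts. The labels name neither the immunizing agent nor whether the replicates are animals, pools or repeats of one preparation, so the p-values below reflect differences among libraries that could be technical in origin.

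A light chain pairs with a heavy chain to form the B cell receptor and the secreted antibody. In each B cell a variable (V) segment is joined to a joining (J) segment at the kappa or the lambda locus, the joined exon is spliced to a constant gene, and as a rule 1 light chain type is expressed per cell. Mouse B cells use kappa far more often than lambda. In the germinal centre, cells with different rearrangements divide, mutate their V exons and are selected, so the V usage of a bulk sample reflects which rearrangements its cells carry and how much RNA each of them holds.

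The J segments and the ends of the V segments are shown because these are the parts joined in each rearrangement. The V counts below were taken over whole V segments, of which only the ends are shown. All were read from GENCODE M21 transcripts on GRCm38 (mm10), 5′ to 3′ along the coding strand. In the J segments, capitals mark the motif TTCGGNNNNGGNAC, which was found in 6 of the 8 J members and in 0 of them on the other strand. The segments that held it and their positions were Igkj1 (chr6:70722562-70722599, + strand), Igkj2 (chr6:70722916-70722958, +), Igkj4 (chr6:70723548-70723585, +), Igkj5 (chr6:70723886-70723927, +), Iglj1 (chr16:19063225-19063262, -) and Iglj3 (chr16:19067041-19067078, -). Igkj3 (chr6:70723223-70723260, +) is shown without capitals because these letters are not in it, and Iglj3p did not hold them either.
Igkj1: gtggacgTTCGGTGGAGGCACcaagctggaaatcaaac
Igkj2: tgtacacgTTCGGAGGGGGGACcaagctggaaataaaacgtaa
Igkj3: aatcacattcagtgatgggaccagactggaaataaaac
Igkj4: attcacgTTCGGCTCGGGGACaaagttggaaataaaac
Igkj5: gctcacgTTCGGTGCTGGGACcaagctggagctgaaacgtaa
Iglj1: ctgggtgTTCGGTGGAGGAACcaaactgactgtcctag
Iglj3: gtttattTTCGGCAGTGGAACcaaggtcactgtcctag

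The next sequences are the last 60 bases of the V segments that the results on usage turn on, and capitals mark the motif TANTNNTGN before the part that reaches the J segment. That motif was found in the last 60 bases of 92 of the 96 V members annotated as V genes, and on the other strand of 20 of them. The segments were Igkv1-117 (chr6:68121046-68121827, +), Igkv1-110 (chr6:68270485-68271267, +), Igkv6-15 (chr6:70406469-70406992, -), Igkv1-135 (chr6:67609713-67610508, +), Igkv10-96 (chr6:68631963-68632442, -), Igkv14-111 (chr6:68256389-68256869, +) and Iglv1 (chr16:19085017-19085500, -).
Igkv1-117: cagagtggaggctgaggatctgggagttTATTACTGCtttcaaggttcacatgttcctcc
Igkv1-110: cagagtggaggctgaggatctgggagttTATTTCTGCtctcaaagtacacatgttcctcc
Igkv6-15: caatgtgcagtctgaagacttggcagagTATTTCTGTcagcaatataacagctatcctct
Igkv1-135: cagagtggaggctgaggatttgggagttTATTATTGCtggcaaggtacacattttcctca
Igkv10-96: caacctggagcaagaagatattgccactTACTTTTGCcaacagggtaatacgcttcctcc
Igkv14-111: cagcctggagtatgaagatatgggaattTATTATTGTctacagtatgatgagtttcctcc
Iglv1: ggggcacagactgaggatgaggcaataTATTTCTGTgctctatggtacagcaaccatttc

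Near-identical copies limit how reads can be divided among the segments. Over 401 aligned bases Igkv1-117 was 97.51% identical to Igkv1-110, against 80.46% to Igkv1-135 and 71.35% to Igkv6-15. Of the 50-base windows of Igkv1-117, 49.86% also occurred in another annotated light chain gene, as did 50.85% of those of Igkv1-110, 15.77% of those of Igkv6-15 and 0% of those of Igkv14-111. Igkc and Iglc1 shared no such window, whereas Iglc2 and Iglc3 were 95.33% identical, and Iglv1 and Iglv2 96.72%. Division of reads between Igkv1-117 and Igkv1-110, Iglc2 and Iglc3, and Iglv1 and Iglv2 is therefore uncertain, and the pairs are also given as sums where that matters. Somatic mutation of V exons also alters how well reads match the reference, and its part in the V counts was not tested.

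The CC libraries held 526353 to 837558 counts and the CB libraries 18357578 to 24341805. Smarca4 stood at 277 ± 46.9 CPM (counts scaled to a common library total with TMM factors) in Smarca4+/- CC and 319 ± 4.35 CPM in Smarca4+/+ CC, and at 718 ± 22.6 CPM in Smarca4+/- CB against 950 ± 74.0 CPM in Smarca4+/+ CB (mean ± SD of 2 libraries), with adjusted p = 0.607 in CC and 1 in CB. The summed CPM of 11 dark zone genes was 2456 and 3464 in Smarca4+/- CC, 1778 and 1708 in Smarca4+/+ CC, 6653 and 5688 in Smarca4+/- CB and 5650 and 6056 in Smarca4+/+ CB. Of these genes, 6 fell in CC against CB in Smarca4+/- mice and 10 in Smarca4+/+ mice, while 5 of 11 light zone genes rose in each genotype, and 6 and 8 of 11 naive follicular B cell genes rose, in the same order. Genes of other cells were higher in the CC fraction. The summed CPM of 14 T cell genes was 72.3 to 223 in Smarca4+/- CC and 443 to 445 in Smarca4+/+ CC, against 4.90 to 6.65 in CB, with Trbc1 and Themis at 0 in Smarca4+/- CC replicate 2 and Icos at 0 in Smarca4+/+ CC replicate 2. The sum of 15 macrophage genes was 2064 to 4754 CPM in CC, against 65.1 to 338 CPM in CB, and that of 9 tested erythroid genes 147 to 811 CPM in CC, against 8.17 to 17.6 CPM in CB, with Alas2 at 0 in Smarca4+/- CC replicate 1. In Smarca4+/- and Smarca4+/+ mice 6 and 11 of the T cell genes, 14 and 12 of the macrophage genes and 6 and 8 of the erythroid genes rose in CC, and 0 of each list were called between genotypes in CC. Cells without light chain RNA lower the light chain share of a bulk sample, and the part of these cells in the results below was not tested. In bulk RNA, fewer cells of a type and less RNA per cell cannot be told apart.

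Light chain RNA took a smaller share of the counts in Smarca4+/- CC than in the other groups. The 116 members held 0.146% and 0.134% of all counts in Smarca4+/- CC and 0.204% and 0.210% in Smarca4+/+ CC. They held 0.251% and 0.204% in Smarca4+/- CB and 0.216% and 0.184% in Smarca4+/+ CB. Both Smarca4+/- CC libraries lay below all 6 others. Counting intervals (95% Wilson) ran from 0.134% to 0.160% and from 0.123% to 0.146% in Smarca4+/- CC, against 0.188% to 0.222% and 0.194% to 0.227% in Smarca4+/+ CC. These shares rest on 990 and 1123 light chain counts in Smarca4+/- CC, 1076 and 1239 in Smarca4+/+ CC and 43821 to 46752 in the CB libraries.

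The mean share was 0.140 ± 0.00862% in Smarca4+/- CC and 0.207 ± 0.00399% in Smarca4+/+ CC (SD, n = 2 each), a difference of -0.0671 percentage points (exact permutation test, 2-sided, p = 0.333, the smallest that 2 against 2 libraries allow). In CB the means were 0.227 ± 0.0330% in Smarca4+/- and 0.200 ± 0.0227% in Smarca4+/+, and the groups overlapped (difference 0.0277 points, exact permutation p = 0.667). CC minus CB was -0.0871 points in Smarca4+/- mice (p = 0.333, exact permutation test), whereas in Smarca4+/+ mice CC lay 0.00769 points above CB, with overlapping libraries (p = 1, exact permutation test), and -0.00250 points when ribosomal RNA and mitochondrial genes were left out of the total. Over both fractions, with labels exchanged only within a fraction, the genotype difference was -0.0197 points (exact permutation p = 0.389, of which 0.0556 is the smallest possible), and over both genotypes the CC minus CB difference was -0.0397 points (exact permutation p = 0.222). Benjamini-Hochberg adjusted permutation p-values of the 24 differences in light chain share, lambda share, V spread and top V share were 0.762 to 1. The smallest possible unadjusted p was 0.333 within a fraction or genotype and 0.0556 over both. None of the 24 could therefore pass the threshold used for genes below, whatever their values. No conclusion on the differences is drawn from this adjustment.

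**Figure D1:**
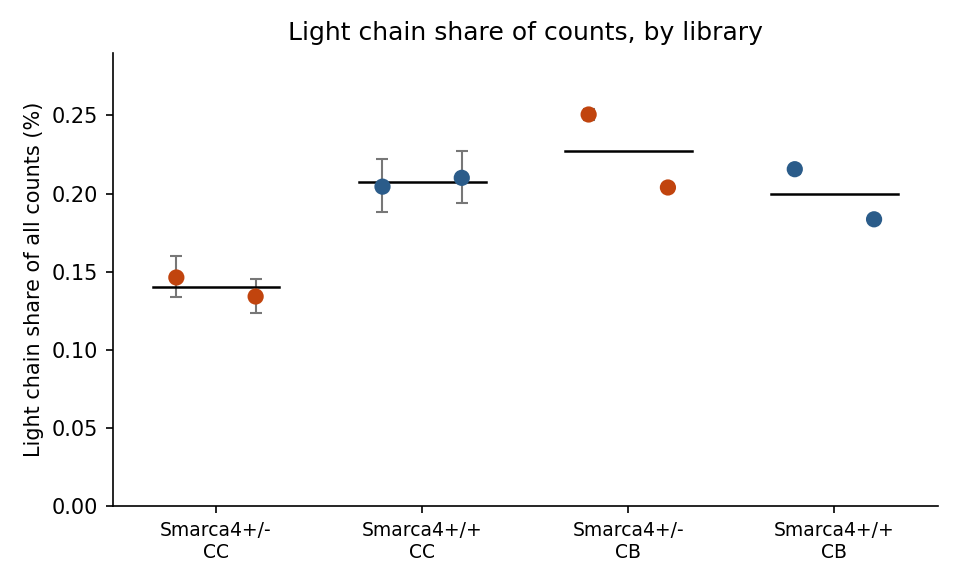
Light chain share of all counts (%, y axis) in each library, by group (x axis). Points are libraries, vertical lines 95% Wilson intervals that cover counting error only. The 2 Smarca4+/- CC libraries, at 0.146% and 0.134%, lie below the other 6, which run from 0.184% to 0.251%.

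Igkc, the kappa constant gene (chr6:70726435-70726966, + strand, mm10, a single exon of 532 bases), was the most abundant member and was also lowest in Smarca4+/- CC. It had 653 and 647 CPM in Smarca4+/- CC, 1017 and 878 CPM in Smarca4+/+ CC, 1265 and 1187 CPM in Smarca4+/- CB and 1154 and 1105 CPM in Smarca4+/+ CB. Both Smarca4+/- CC libraries lay below every other library, and both Smarca4+/+ CC libraries lay below all CB libraries. Igkc fell in CC relative to CB in Smarca4+/- mice, to 650 ± 3.99 CPM in CC against 1226 ± 55.4 CPM in CB (SD, n = 2 each; log2 fold change -0.92, SE 0.15, edgeR adjusted p = 0.00906). The adjusted p of that difference was 0.107 to 0.159 when 1 of the Smarca4+/- CB libraries was left out. In Smarca4+/+ mice the same comparison gave 947 ± 98.2 CPM in CC and 1130 ± 34.6 CPM in CB (log2 fold change -0.25, SE 0.15, adjusted p = 0.337). The difference between these differences had a log2 value of -0.66 (SE 0.21) and an adjusted p of 0.436, so the fall was not shown to differ by genotype. For Smarca4+/- CC against Smarca4+/+ CC the log2 fold change of Igkc was -0.54, with an SE of 0.15 and an adjusted p of 0.167.

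Over constant genes the mean lambda share of light chain RNA differed between groups by less than 2 percentage points, while over V segments it was higher in CC than in CB. Of the constant gene counts, the lambda constant genes (Iglc1 to Iglc4, chromosome 16) held 14.8% and 15.2% in Smarca4+/- CC, 14.2% and 14.9% in Smarca4+/+ CC, 12.9% and 14.8% in Smarca4+/- CB and 14.3% and 12.5% in Smarca4+/+ CB. The kappa gene held the rest, and the CC genotypes overlapped, as did the CB genotypes. The mean lambda share was 15.01 ± 0.289% in Smarca4+/- CC and 14.5 ± 0.508% in Smarca4+/+ CC, and 13.9 ± 1.37% in Smarca4+/- CB against 13.4 ± 1.23% in Smarca4+/+ CB (mean ± SD of 2 libraries). The genotype difference was 0.475 percentage points in CC and 0.487 points in CB (exact permutation p = 0.667 for each), and 0.481 points over both fractions (exact permutation p = 0.444). CC exceeded CB by 1.14 points over both genotypes (exact permutation p = 0.222). In CC the counting intervals were 10.8% to 19.5% at their widest extent over the 4 libraries, so a difference of a few points was not detectable at this depth, while in the CB libraries all intervals lay between 11.97% and 15.4%. Counted by V segments in place of constant genes, the lambda share was 12.4% and 7.98% in Smarca4+/- CC and 11.5% and 11.4% in Smarca4+/+ CC, against 6.53% and 6.82% in Smarca4+/- CB and 8.81% and 6.79% in Smarca4+/+ CB. By that count both CC libraries of each genotype lay above both its CB libraries, and CC exceeded CB by 3.57 points over both genotypes (exact permutation p = 0.0556, the smallest possible). Over V, J and constant counts together CC exceeded CB by 1.86 points (exact permutation p = 0.0556). The genotype difference by V segments turned negative, at -1.24 points in CC and -1.13 points in CB.

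**Figure D2:**
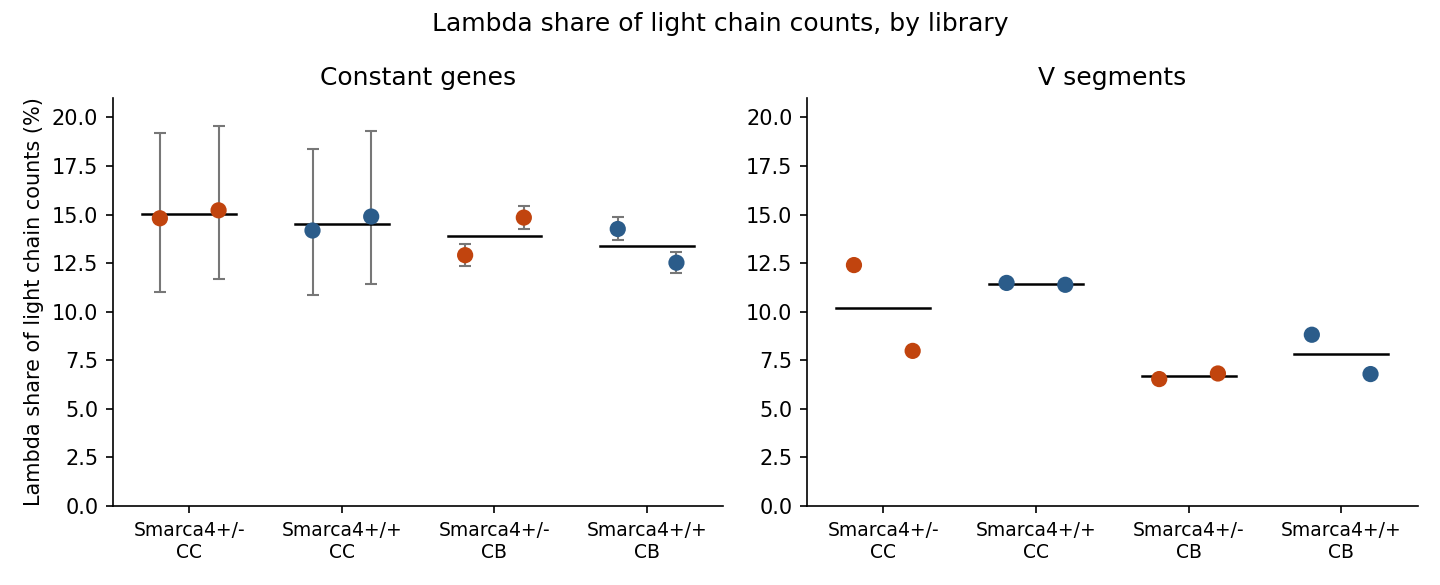
Lambda share of light chain counts (%, y axis) in each library by group (x axis), counted over constant genes (left, with 95% Wilson intervals) and over V segments (right). Over constant genes the 8 libraries lie between 12.5% and 15.2% with overlapping intervals within CC, and over V segments between 6.53% and 12.4%.

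Among the lambda constant genes, which follow separate lambda J segments, Iglc1 held the largest share in 6 libraries. It took 67.1% and 36.7% of lambda constant counts in Smarca4+/- CC, 57.4% and 34.0% in Smarca4+/+ CC, 53.6% and 47.7% in Smarca4+/- CB and 54.7% and 44.2% in Smarca4+/+ CB. In Smarca4+/- CC replicate 2 Iglc2 was level with Iglc1 at 36.7%, and in Smarca4+/+ CC replicate 2 Iglc2 was above it at 40.4%. The lambda constant totals in CC were only 85 to 98 counts per library, and replicates differed by more than the groups did. The near-identical Iglc2 and Iglc3 together made up most of the rest. Iglc4 had 5 and 8 counts in Smarca4+/- CB, 14 and 0 counts in Smarca4+/+ CB and 0 in the 4 CC libraries. Iglc1 had 76.1 and 42.7 CPM in Smarca4+/- CC, 96.5 and 52.3 CPM in Smarca4+/+ CC, 100.5 and 98.6 CPM in Smarca4+/- CB and 105 and 70.0 CPM in Smarca4+/+ CB, and the CC groups overlapped (log2 fold change -0.33, SE 0.40, adjusted p = 0.723). Iglc2 and Iglc3 gave -0.66 (SE 0.43, adjusted p = 0.469) and -0.60 (SE 0.45, adjusted p = 0.529) in the same comparison. Iglc3 was the lambda constant gene with the smallest p between fractions, with 16.0 and 30.8 CPM in Smarca4+/- CC against 46.9 and 66.5 CPM in Smarca4+/- CB (log2 fold change -1.26, SE 0.40, adjusted p = 0.116).

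Of the 3 lambda V segments, Iglv1 held most counts in every library. Its share of lambda V counts was 60.9% and 52.9% in Smarca4+/- CC, 64.4% and 93.8% in Smarca4+/+ CC, 71.1% and 71.7% in Smarca4+/- CB and 77.9% and 66.0% in Smarca4+/+ CB. Iglv3 held 26.1% and 35.3% in Smarca4+/- CC, against 13.3% and 6.15% in Smarca4+/+ CC, on totals of 34 to 65 lambda V counts per CC library. The CC groups did not overlap for either segment, but these small totals leave wide counting error, and all 3 segments stayed above an adjusted p of 0.05 in each comparison.

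Reads assigned to the J segments were few. The 5 kappa J segments held 41 and 49 counts in Smarca4+/- CC, 19 and 37 in Smarca4+/+ CC, 1242 and 1641 in Smarca4+/- CB and 1523 and 1717 in Smarca4+/+ CB. These counts do not separate J segments joined to a V segment from those not joined, so they are not read as J usage. In CB, Igkj5 held the largest share, with 30.3% and 30.9% of kappa J counts in Smarca4+/- CB and 27.0% and 33.4% in Smarca4+/+ CB. Igkj3, the kappa J segment shown above without the motif and held to be nonfunctional in the mouse, had the lowest share in CB, at 7.41% and 9.57% in Smarca4+/- CB and 12.02% and 13.7% in Smarca4+/+ CB. The CB groups did not overlap for Igkj3, and its adjusted p was 1. In CC the shares differed between replicates of a group. Igkj1 held 24.4% and 26.5% in Smarca4+/- CC and 63.2% and 18.9% in Smarca4+/+ CC, and Igkj5 held 12.2% and 28.6% in Smarca4+/- CC and 0% and 54.1% in Smarca4+/+ CC. The lambda J segments had 50 and 37 counts for Iglj1 in Smarca4+/- CB and 72 and 54 in Smarca4+/+ CB, with 0 to 2 in the CC libraries, and Iglj3 and Iglj3p had at most 31 counts in any library. The J shares in CC could not be resolved at this depth.

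V segments carried about as many counts relative to the constant genes in each group. The ratio of V to constant counts was 0.646 and 0.661 in Smarca4+/- CC, 0.591 and 0.905 in Smarca4+/+ CC, 0.622 and 0.552 in Smarca4+/- CB and 0.592 and 0.583 in Smarca4+/+ CB. Smarca4+/+ CC replicate 2 stood above the rest. The V totals were 371 and 426 counts in Smarca4+/- CC, 392 and 571 in Smarca4+/+ CC, 17136 and 16017 in Smarca4+/- CB and 15694 and 15778 in Smarca4+/+ CB. A floor of 3 counts, not halved, was 0.525% to 0.809% of the V total in a CC library. In a CB library it was 0.0175% to 0.0191% (counting error only). On halved counts, as used for the Wilson intervals, a V segment at 0 could hold a larger share. The upper limit was 1.92% for Igkv14-111 in Smarca4+/+ CC replicate 1 and 1.33% for Igkv8-30 in Smarca4+/+ CC replicate 2. Of the 103 V members, 17 were counted in all 4 CC libraries and 26 in none of them, whereas 88 were counted in all 4 CB libraries. At least 1 count was found for 42 and 59 V members in Smarca4+/- CC and for 39 and 38 in Smarca4+/+ CC. Thinned to 371 V counts per library, those numbers were 42.0 and 58.5 in Smarca4+/- CC, 39.0 and 36.03 in Smarca4+/+ CC, 67.8 and 67.8 in Smarca4+/- CB and 63.4 and 66.4 in Smarca4+/+ CB. The draws took single counts. Of the V members counted in a CC library, 86.8% to 97.6% had even counts, as when both mates of a pair are counted. Equal counts may therefore not be equal depth, and these numbers do not settle whether CC libraries held fewer V members.

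The most used V segment was Igkv1-117 in all 8 libraries. Its share of V counts was 16.2% and 9.86% in Smarca4+/- CC, 20.2% and 26.6% in Smarca4+/+ CC, 13.8% and 18.4% in Smarca4+/- CB and 13.8% and 17.7% in Smarca4+/+ CB. The Smarca4+/+ CC libraries were the 2 highest and did not overlap with Smarca4+/- CC, while the CB groups overlapped. The means were 13.0 ± 4.46% in Smarca4+/- CC and 23.4 ± 4.57% in Smarca4+/+ CC (SD, n = 2 each), a difference of -10.4 percentage points (exact permutation p = 0.333), and 16.1 ± 3.26% in Smarca4+/- CB and 15.7 ± 2.72% in Smarca4+/+ CB, a difference of 0.341 points (exact permutation p = 1). CC minus CB was -3.05 points in Smarca4+/- mice (exact permutation p = 0.667) and 7.66 points in Smarca4+/+ mice (exact permutation p = 0.333). Set per base of segment length, Igkv1-117 was also the highest on average, at 15.9% of the length-scaled V signal, followed by Igkv1-110 at 8.95% and Igkv6-15 at 8.04%.

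Igkv1-110 and Igkv6-15 were the next most used by mean share in Smarca4+/+ CC, where Iglv1 was above Igkv1-110 in replicate 2, and both held lower shares in Smarca4+/- CC. Igkv1-110 held 7.01% and 3.76% in Smarca4+/- CC, 15.1% and 9.46% in Smarca4+/+ CC, 10.0% and 8.75% in Smarca4+/- CB and 10.7% and 11.2% in Smarca4+/+ CB. Igkv6-15 held 8.09% and 3.29% in Smarca4+/- CC, 13.3% and 14.0% in Smarca4+/+ CC, 4.79% and 4.61% in Smarca4+/- CB and 5.64% and 5.36% in Smarca4+/+ CB. The CC genotypes did not overlap for either. Taken with Igkv1-117 as a trio, which was chosen after its values were seen, they held 31.3% and 16.9% of V counts in Smarca4+/- CC and 48.5% and 50.1% in Smarca4+/+ CC. The trio held 28.6% and 31.7% in Smarca4+/- CB and 30.2% and 34.3% in Smarca4+/+ CB. The counting intervals of both Smarca4+/+ CC libraries, 41.6% to 55.4% and 44.4% to 55.9%, lay above those of the 6 others, the highest of which reached 38.4%. The near-identical pair of Igkv1-117 and Igkv1-110, whose sum does not depend on how reads were divided between them, held 23.2% and 13.6% in Smarca4+/- CC, 35.2% and 36.1% in Smarca4+/+ CC, 23.8% and 27.1% in Smarca4+/- CB and 24.5% and 28.9% in Smarca4+/+ CB.

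**Figure D3:**
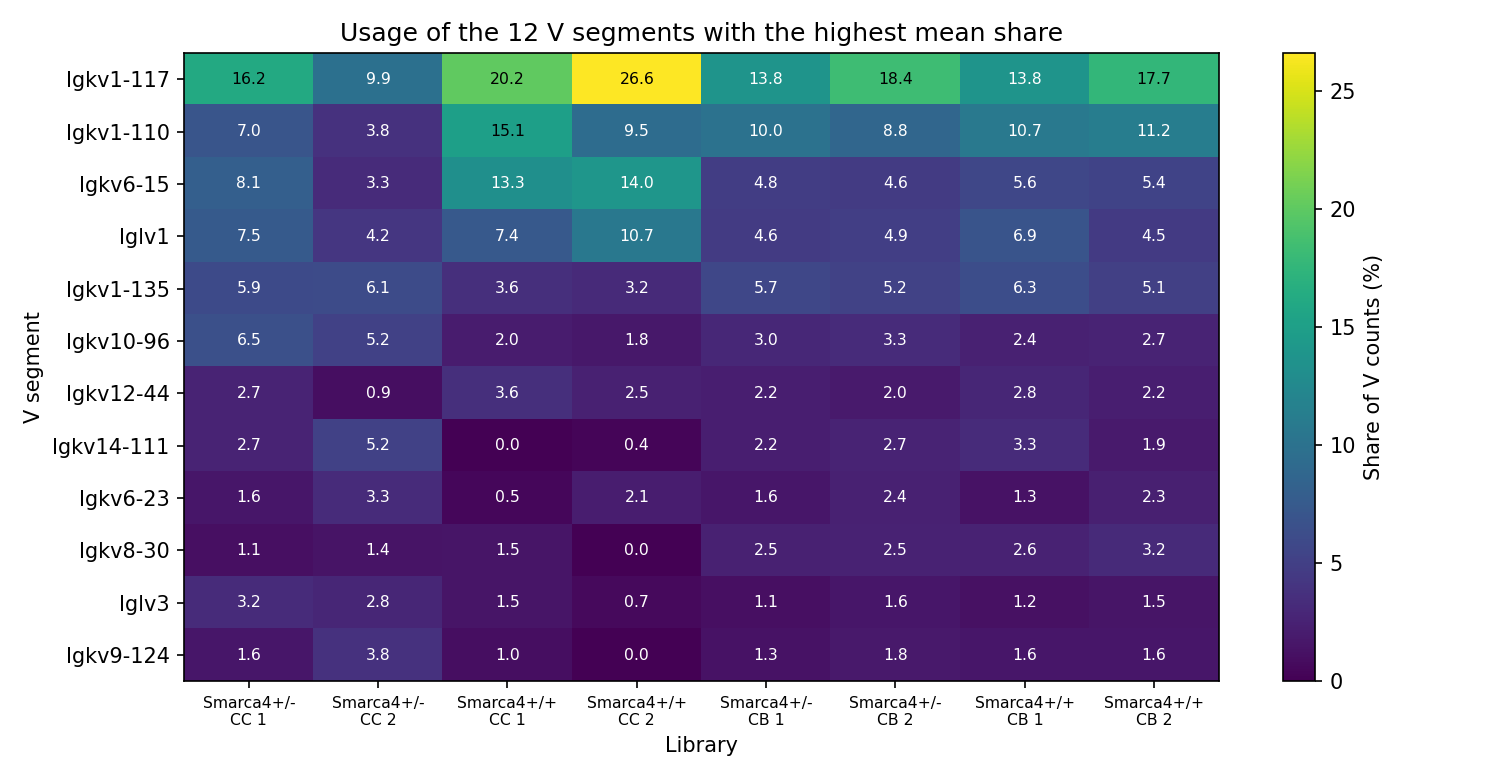
Share of V counts (%, colour and printed values) held by the 12 V segments with the highest mean share (rows) in each library (columns). Igkv1-117 heads every column, and Igkv1-110 and Igkv6-15 are higher in the 2 Smarca4+/+ CC libraries than in the 2 Smarca4+/- CC libraries.

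Other leading V segments ran the other way or varied among libraries. Igkv10-96 held 6.47% and 5.16% in Smarca4+/- CC, 2.04% and 1.75% in Smarca4+/+ CC, 2.98% and 3.27% in Smarca4+/- CB and 2.43% and 2.70% in Smarca4+/+ CB. Igkv1-135 held 5.93% and 6.10% in Smarca4+/- CC and 3.57% and 3.15% in Smarca4+/+ CC, and 5.05% to 6.27% in the CB libraries. Igkv14-111 held 2.70% and 5.16% in Smarca4+/- CC, 0% and 0.350% in Smarca4+/+ CC, 2.21% and 2.69% in Smarca4+/- CB and 3.28% and 1.90% in Smarca4+/+ CB. For these 3 segments both Smarca4+/- CC libraries lay above both Smarca4+/+ CC libraries by share. Shares are parts of a fixed total, so the larger share of the trio in Smarca4+/+ CC lowers those of all other segments there. By CPM, which is not bound in this way, Igkv1-135 overlapped between the CC genotypes. Iglv1 held 7.55% and 4.23% in Smarca4+/- CC, 7.40% and 10.7% in Smarca4+/+ CC, 4.65% and 4.89% in Smarca4+/- CB and 6.87% and 4.48% in Smarca4+/+ CB, with overlap between genotypes. Of the remaining 5 of the 12 most used segments, Iglv3 and Igkv9-124 were higher in both Smarca4+/- CC libraries than in both Smarca4+/+ CC libraries, whereas Igkv12-44, Igkv6-23 and Igkv8-30 overlapped. Second place after Igkv1-117 was taken by Igkv6-15 in Smarca4+/- CC replicate 1, Igkv1-135 in Smarca4+/- CC replicate 2, Igkv6-15 in Smarca4+/+ CC replicate 2, and Igkv1-110 in Smarca4+/+ CC replicate 1 and the 4 CB libraries. Annotated V pseudogenes held at most 0.913% of V counts in any library.

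V usage was spread over more segments in Smarca4+/- CC than in Smarca4+/+ CC. The effective number of V segments, the number of equally used segments that would give the same concentration (inverse Simpson index, mean of 1000 draws of 371 V counts per library), was 16.3 and 28.5 in Smarca4+/- CC and 10.5 and 8.38 in Smarca4+/+ CC. It was 21.1 and 17.1 in Smarca4+/- CB and 18.7 and 16.5 in Smarca4+/+ CB. Both Smarca4+/+ CC libraries lay below every other library, and Smarca4+/- CC replicates differed from each other by more than any other pair of replicates. The means were 22.4 ± 8.62 in Smarca4+/- CC and 9.45 ± 1.51 in Smarca4+/+ CC (SD, n = 2 each), a difference of 13.0 (exact permutation p = 0.333), and 19.1 ± 2.82 in Smarca4+/- CB and 17.6 ± 1.51 in Smarca4+/+ CB, a difference of 1.49 (exact permutation p = 0.667). Over both fractions the genotype difference was 7.24 (exact permutation p = 0.111). CC minus CB was 3.35 in Smarca4+/- mice (exact permutation p = 1; -2.58 with the Shannon index in place of the Simpson index) and -8.14 in Smarca4+/+ mice (exact permutation p = 0.333). With 1 of the 4 CC libraries left out, the genotype difference in CC was 6.89 to 19.1, the lower value being that without Smarca4+/- CC replicate 2. Without the trio, and without thinning, the effective number was 20.01 and 30.6 in Smarca4+/- CC, 18.9 and 12.8 in Smarca4+/+ CC, 36.3 and 34.7 in Smarca4+/- CB and 27.1 and 36.1 in Smarca4+/+ CB. These values rest on 202 to 354 remaining V counts per CC library and 10372 to 12238 per CB library, so the fractions are not compared at equal counts. The 10 most used segments of each library also held most in Smarca4+/+ CC, with 65.8% and 48.4% of V counts in Smarca4+/- CC, 73.7% and 79.0% in Smarca4+/+ CC, 52.3% and 55.9% in Smarca4+/- CB and 59.3% and 56.7% in Smarca4+/+ CB.

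**Figure D4:**
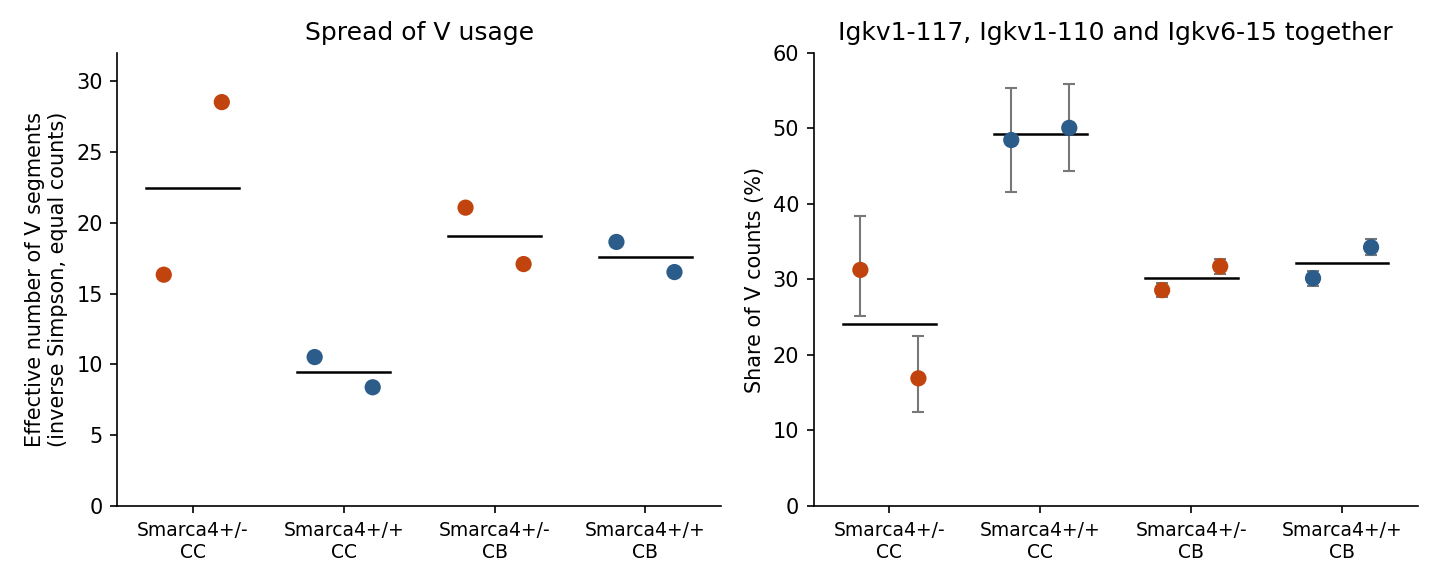
Effective number of V segments at equal counts (left, y axis) and share of V counts held by Igkv1-117, Igkv1-110 and Igkv6-15 together (right, %, with 95% Wilson intervals) in each library, by group (x axis). The 2 Smarca4+/+ CC libraries are lowest on the left, at 10.5 and 8.38, and highest on the right, at 48.5% and 50.1%.

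Grouped by family, that is by the first number of the segment's name, the Igkv1 family (8 members) was the most used in every library. It held 33.2% and 23.0% of kappa V counts in Smarca4+/- CC, 43.8% and 45.1% in Smarca4+/+ CC, 32.9% and 35.8% in Smarca4+/- CB and 34.2% and 37.2% in Smarca4+/+ CB. The Igkv6 family (9 members) held 14.8% and 10.2% in Smarca4+/- CC, 17.9% and 21.9% in Smarca4+/+ CC and 11.3% to 13.9% in the CB libraries. The Igkv8 family (10 members) was higher in Smarca4+/- CC, at 9.85% and 13.0%, than in Smarca4+/+ CC, at 2.88% and 0.791%, and stood at 6.51% to 6.95% in the CB libraries. The Igkv14 family (4 members) held 4.92% and 5.61% in Smarca4+/- CC and 0% and 0.395% in Smarca4+/+ CC. The largest family by members, Igkv4 (28), held 4.31% and 14.3% in Smarca4+/- CC, 6.34% and 10.1% in Smarca4+/+ CC and 9.82% to 12.1% in the CB libraries, with overlap between the CC genotypes.

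By distance from the J segments the CC genotypes overlapped or lay close, and by strand they did not overlap. The 29 kappa V members that lie 2000 to 4000 kb from Igkj1 held 57.8% and 43.9% of kappa V counts in Smarca4+/- CC, 57.1% and 52.4% in Smarca4+/+ CC, 49.7% and 53.6% in Smarca4+/- CB and 53.9% and 53.5% in Smarca4+/+ CB. The 38 nearest members, within 1000 kb, held 36.6% and 37.2% in Smarca4+/- CC, 36.02% and 35.97% in Smarca4+/+ CC, 35.1% and 33.4% in Smarca4+/- CB and 32.1% and 34.1% in Smarca4+/+ CB. The 33 members in between held 5.54% to 18.9% in CC and 12.4% to 15.2% in CB. Kappa V segments on the strand of Igkc are joined by deletion and those on the other strand by inversion. The 38 members on the strand of Igkc held 55.7% and 41.1% in Smarca4+/- CC, 60.2% and 59.3% in Smarca4+/+ CC, 55.2% and 56.7% in Smarca4+/- CB and 56.4% and 58.4% in Smarca4+/+ CB, with both Smarca4+/- CC libraries below both Smarca4+/+ CC libraries and Smarca4+/- CC replicate 2 the lowest.

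Distances between libraries over all 103 V members depended on the measure. The Bray-Curtis distance, which is 0 for equal usage and 1 for no shared usage, was 0.406, 0.421, 0.555 and 0.589 between the 4 pairs of a Smarca4+/- CC and a Smarca4+/+ CC library. Replicates of 1 group were 0.361 apart in Smarca4+/- CC and 0.341 apart in Smarca4+/+ CC, so by this measure all 4 pairs across genotypes lay farther apart than the replicates. By 1 minus Spearman's correlation of V usage this did not hold: the CC pairs across genotypes were 0.539 to 0.593 apart, against 0.375 between the Smarca4+/- CC replicates and 0.599 between the Smarca4+/+ CC replicates. In CB the pairs across genotypes were 0.133 to 0.196 apart, against 0.175 between replicates in Smarca4+/- CB and 0.176 in Smarca4+/+ CB, so the pairs across genotypes spanned the replicate distances. The CC libraries hold far fewer counts, which raises their distances. When every library was thinned to the same V total, the pairs across genotypes were 0.407 to 0.591 apart in CC and 0.248 to 0.284 apart in CB, and replicates 0.271 to 0.362 apart. The draws took single counts, not halved ones, and no test was run on distances.

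Tested gene by gene, no light chain member passed the threshold between genotypes in CB. Of the 116 members, 97 had enough counts to be tested among 12997 genes. In Smarca4+/- CB against Smarca4+/+ CB edgeR called 0 of these members at an adjusted p under 0.05 and 0% of all genes, and 0 members had an unadjusted p under 0.05. DESeq2 also called 0 members, with 0.0231% of all genes called, and limma-voom called 0 members. Of the 4 members that the CC results turn on, Igkc was higher in both Smarca4+/- CB libraries than in both Smarca4+/+ CB libraries, and Igkv1-117, Igkv1-110 and Igkv6-15 overlapped between the CB genotypes (all with edgeR adjusted p = 1).

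In CC, Smarca4+/- against Smarca4+/+, edgeR called 0 of 97 members and 0.0231% of all genes, while 18 members had an unadjusted p under 0.05 and limma-voom called 0. The share of all genes with an unadjusted p under 0.05 was not computed. This count, and those at the same unadjusted threshold below, are therefore not read as an excess among the members. The members with the smallest adjusted p were the segments of the trio. Igkv1-110 had 34.7 and 19.0 CPM in Smarca4+/- CC and 105 and 88.3 CPM in Smarca4+/+ CC (log2 fold change -1.86, SE 0.36, edgeR adjusted p = 0.108). Igkv1-117 had 80.1 and 49.8 CPM in Smarca4+/- CC and 141 and 248 CPM in Smarca4+/+ CC (-1.59, SE 0.33, edgeR adjusted p = 0.111). Igkv6-15 had 40.1 and 16.6 CPM in Smarca4+/- CC and 92.9 and 131 CPM in Smarca4+/+ CC (-2.0, SE 0.42, edgeR adjusted p = 0.111). Each of these was lower in both Smarca4+/- CC libraries than in both Smarca4+/+ CC libraries, and none passed the threshold. DESeq2 called 6 members in this comparison, among 7.53% of all genes called. These were Igkc, Igkv1-110, Igkv1-117, Igkv3-4 and Igkv6-15, lower in Smarca4+/- CC, and Igkv14-111, higher. Igkv14-111 had 10 and 22 counts in Smarca4+/- CC and 0 and 2 counts in Smarca4+/+ CC, a ratio per scaled library total of 11.8 with an exact 95% counting interval on halved counts of 1.83 to 494 (edgeR adjusted p = 0.171). Igkv3-4 had 0 and 0 counts in Smarca4+/- CC and 8 and 5 counts in Smarca4+/+ CC.

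Of the 3 genes that edgeR called in that comparison over all genes, 2 were heavy chain constant genes, whose products pair with light chains. Ighg2b, which encodes the heavy chain of IgG2b, had 101.5 and 116 CPM in Smarca4+/- CC and 406 and 517 CPM in Smarca4+/+ CC (log2 fold change -2.08, SE 0.22, edgeR adjusted p = 0.00883). Igha, which encodes that of IgA, had 18.7 and 35.6 CPM in Smarca4+/- CC and 683 and 705 CPM in Smarca4+/+ CC (-4.66, SE 0.56, edgeR adjusted p = 0.0175). Ighg2b was no longer called without either Smarca4+/- CC library or without Smarca4+/+ CC replicate 2 (adjusted p 0.0579 to 0.123), nor Igha without any of the 4 CC or either of the Smarca4+/- CB libraries (0.0563 to 0.123). Igha had 12.9 and 11.6 CPM in Smarca4+/- CB and 80.7 and 23.0 CPM in Smarca4+/+ CB. The 14 other tested genes of the list of partners did not pass the threshold in this comparison.

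**Figure D5:**
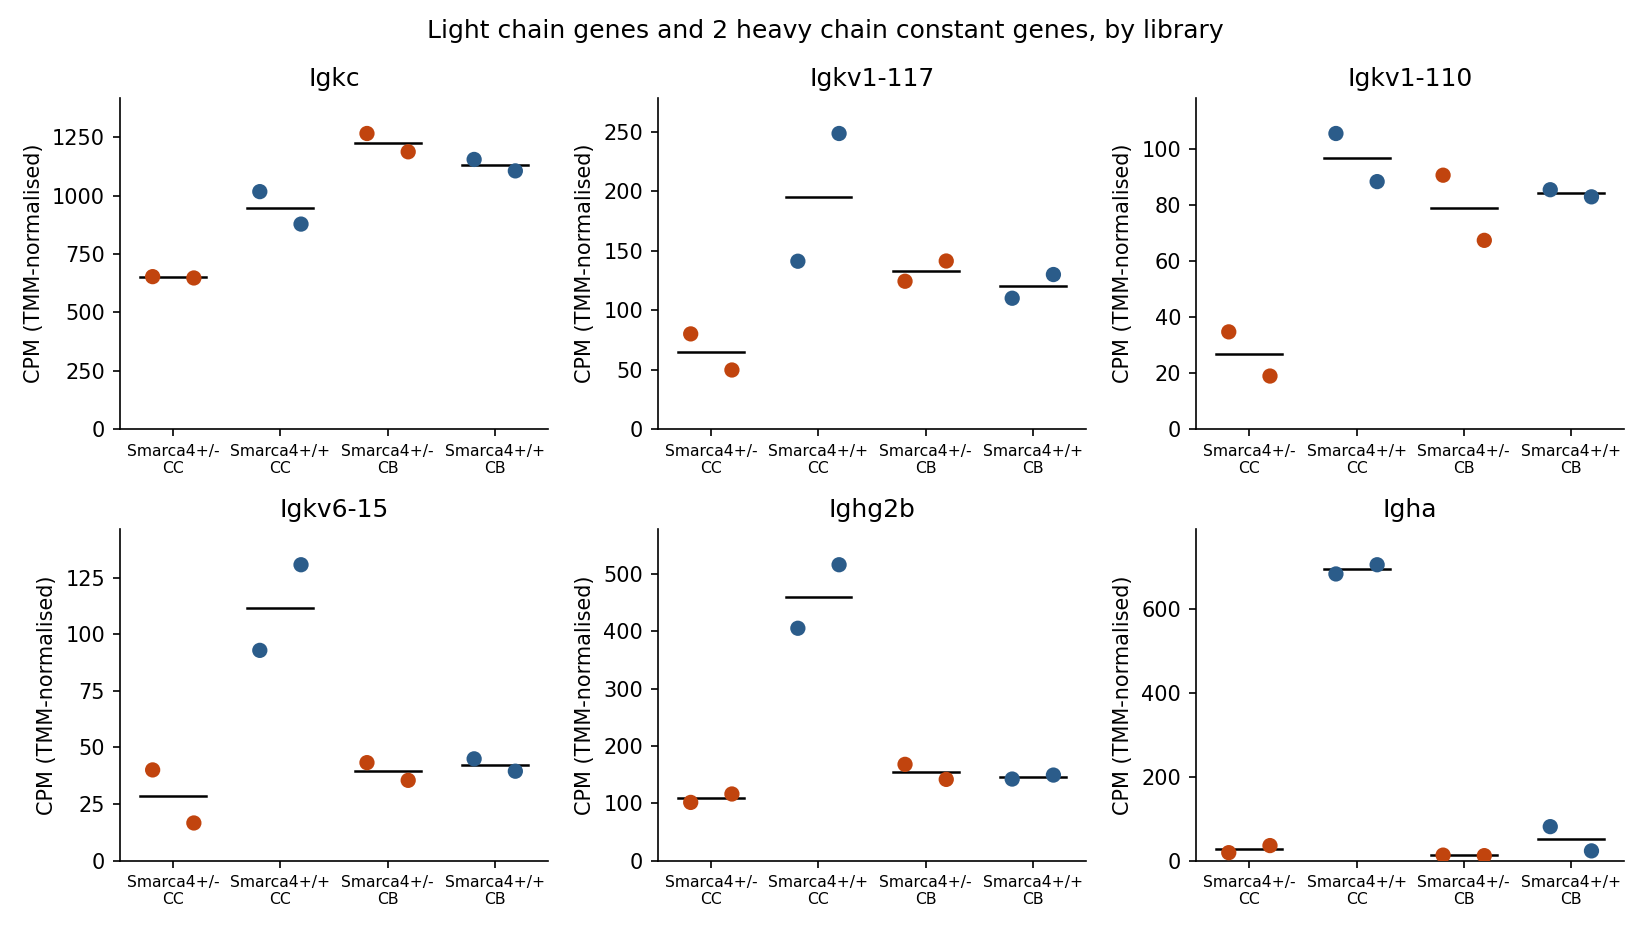
TMM-scaled CPM (y axis) of 4 light chain genes and 2 heavy chain constant genes in each library, by group (x axis). Points are libraries and bars group means. In the panels of Igkv1-117, Igkv1-110 and Igkv6-15 both Smarca4+/- CC libraries lie below both Smarca4+/+ CC libraries, and in those of Ighg2b and Igha the Smarca4+/+ CC libraries, at 406 and 517 CPM and at 683 and 705 CPM, stand above all others.

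Between fractions, few light chain members passed the test in either genotype. In Smarca4+/+ mice edgeR called 1 of 97 members higher in CC than in CB and 0 lower, against 7.49% of all genes called, and 16 members had an unadjusted p under 0.05. The 1 member was Igkv6-15, with 92.9 and 131 CPM in Smarca4+/+ CC against 45.0 and 39.5 CPM in Smarca4+/+ CB (log2 fold change 1.41, SE 0.37, edgeR adjusted p = 0.0421). It was no longer called when any 1 CB library or Smarca4+/+ CC replicate 2 was left out (adjusted p 0.0945 to 0.285). Igkv1-117 had 141 and 248 CPM in Smarca4+/+ CC against 110 and 130.0 CPM in Smarca4+/+ CB (0.70, SE 0.30, edgeR adjusted p = 0.190). DESeq2 called 7 members, among 18.9% of all genes called, with Igkv6-15 higher and Igkv14-111, Igkv16-104, Igkv5-45, Igkv6-17, Igkv8-27 and Igkv8-30 lower in CC, and limma-voom called 0. Of the 97 members, 71 had a negative fold change, against 57.9% of all tested genes. Many of these V members had no count in a CC library, so that count is not read as a change of the members.

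In Smarca4+/- mice edgeR called 2 of 97 members lower in CC than in CB and 0 higher, against 3.67% of all genes called, and 14 members had an unadjusted p under 0.05. They were Igkc, described above, and Igkv1-110, with 34.7 and 19.0 CPM in Smarca4+/- CC against 90.6 and 67.3 CPM in Smarca4+/- CB (log2 fold change -1.57, SE 0.34, edgeR adjusted p = 0.0303). The call of Igkv1-110 was lost when any 1 of the 4 CB or of the Smarca4+/- CC libraries was left out (adjusted p 0.0753 to 0.352). DESeq2 called 6 members, among 12.4% of all genes called, with Igkv9-129 higher and Igkc, Igkv1-110, Igkv17-121, Igkv6-17 and Iglc3 lower in CC, and limma-voom called Igkc alone. In each genotype the share of members called by edgeR was below that over all genes. Many V members had no count in a CC library and could hardly be called, so this is not read as a property of the members.

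The genotype by fraction interaction asks whether the genotype difference differs between the fractions. edgeR called 0 of 97 members and 0% of all genes, 16 members had an unadjusted p under 0.05, and limma-voom called 0. The log2 interaction was -1.74 (SE 0.44) for Igkv1-117, -1.77 (SE 0.46) for Igkv1-110 and -1.90 (SE 0.54) for Igkv6-15, each with an edgeR adjusted p of 0.419. DESeq2 called 4 members, these 3 and Igkc, all negative, among 3.16% of all genes called.

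The light chain partners, a list of 19 genes of which 16 were tested, comprise heavy chain constant genes, signalling subunits and folding factors of immunoglobulin. In Smarca4+/+ mice 5 rose and 1 fell in CC against CB (edgeR). Pdia4, a disulfide isomerase of the endoplasmic reticulum, had 202 and 219 CPM in Smarca4+/+ CC against 38.6 and 31.8 CPM in Smarca4+/+ CB (log2 fold change 2.58, edgeR adjusted p = 0.00164). Hsp90b1, a chaperone of that compartment, had 436 and 325 CPM in Smarca4+/+ CC against 165 and 127 CPM in Smarca4+/+ CB (1.38, adjusted p = 0.0114). Ighg2b (1.66, adjusted p = 0.00173), Igha (3.74, adjusted p = 0.00201) and Ighd (1.48, adjusted p = 0.0116) rose as well, and Ighg3 fell (-1.27, adjusted p = 0.0321). In Smarca4+/- mice Pdia4 rose (1.39, adjusted p = 0.0370), while Ighm, the heavy chain of IgM, fell to 2178 and 3162 CPM in CC against 5287 and 4433 CPM in CB (-0.86, adjusted p = 0.0265), and Jchain, which links IgM and IgA chains, fell (-0.93, adjusted p = 0.0402). Hsp90b1 and Ighd were no longer called in Smarca4+/+ mice without either Smarca4+/+ CB library, Ighg3 without any 1 CB or Smarca4+/+ CC library, and in Smarca4+/- mice Pdia4, Ighm and Jchain without any 1 CB library or Smarca4+/- CC replicate 1, and Jchain also without Smarca4+/- CC replicate 2. Ighg1, Ighg2c, Ighe, Cd79a and Cd79b (the signalling chains of the receptor), Hspa5, Mzb1 and Vpreb3 passed in no comparison. The surrogate light chain genes of early B cells, Igll1, Vpreb1 and Vpreb2, were not tested, with 2 counts in all.

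Genes of light chain rearrangement and repair were also examined. The recombinase genes were at or near 0. Rag1 had 0 and 0 counts in Smarca4+/- CC, 0 and 2 in Smarca4+/+ CC, 6 and 10 in Smarca4+/- CB and 18 and 8 in Smarca4+/+ CB, and Rag2 and Dntt, the terminal transferase, had 0 in all libraries. Of the genes tested, Lig4, Xrcc4, Xrcc5, Xrcc6, Prkdc, Dclre1c, Nhej1, Poll and Polm of end joining, the chromatin protein Hmgb1 and the uracil glycosylase Ung, passed in no comparison.

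Of 22 regulators that act at light chain loci, all tested, 1 rose and 7 fell in CC against CB in Smarca4+/+ mice, and 0 rose and 3 fell in Smarca4+/- mice, with 0 called between genotypes in either fraction. Irf4, a transcription factor that binds kappa and lambda enhancers, had 123 and 199 CPM in Smarca4+/+ CC against 49.0 and 45.7 CPM in Smarca4+/+ CB (log2 fold change 1.77, edgeR adjusted p = 0.0109). Pou2af1, a coactivator of octamer-binding factors at immunoglobulin promoters, fell in both genotypes, to 471 and 761 CPM in Smarca4+/- CC against 1680 and 1480 CPM in Smarca4+/- CB (-1.36, adjusted p = 0.00692) and to 770 and 675 CPM in Smarca4+/+ CC against 1441 and 1493 CPM in Smarca4+/+ CB (-1.02, adjusted p = 0.0157). Foxo1 (-1.0, adjusted p = 0.0174, in Smarca4+/- mice and -0.96, adjusted p = 0.0149, in Smarca4+/+ mice) and Spib, a partner of Irf4 on DNA (-0.79, adjusted p = 0.0297, and -0.83, adjusted p = 0.0160, in the same order), also fell. Each of these calls was lost when some single libraries were left out, with adjusted p of up to 0.257.

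Plasma cells hold far more light chain RNA than other B cells, so their markers are given beside the light chain shares. The summed CPM of the plasma cell genes was 1044 and 1065 in Smarca4+/- CC, 1065 and 1085 in Smarca4+/+ CC, 1241 and 1219 in Smarca4+/- CB and 1268 and 1221 in Smarca4+/+ CB. Of 15 listed genes 12 were tested, and 0 were called between genotypes in either fraction. Sdc1, the plasma cell surface marker CD138, had 2 and 2 counts in Smarca4+/- CC, 0 and 0 in Smarca4+/+ CC, 20 and 41 in Smarca4+/- CB and 10 and 36 in Smarca4+/+ CB. Tnfrsf17, Fkbp11 and Cav1 were at 0 in all 4 CC libraries. Slpi and Creb3l2 rose in CC against CB in Smarca4+/+ mice and Slpi in Smarca4+/- mice (edgeR), and the others did not pass. Slpi was not called in Smarca4+/+ mice without either Smarca4+/+ CB library (adjusted p 0.0698 and 0.0717), nor Creb3l2 without any 1 CB library, nor Slpi in Smarca4+/- mice without either Smarca4+/- CB library or Smarca4+/- CC replicate 1.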

How the data were processed

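RNA was measured in 8 libraries, 2 in each of 4 groups taken from the labels. Per the labels' protocols, total RNA libraries were made with the KAPA RNA HyperPrep kit with RiboErase. The authors deposited 1 table of raw counts for each gene, with no normalization applied. It also holds the other unit, a gene length in bases, also deposited by the authors and used here for per-length shares. The submitters' processing notes name FastQC, STAR, featureCounts, Subread, R 4.2.1 and build mm10. How strand and multimapping reads were handled is not given in the sources used here. Total counts were 526353 to 837558 in CC and 18357578 to 24341805 in CB.

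Members were found by matching the 55421 identifiers to GENCODE M21 symbols (55154 had one). Members and gene lists were chosen with earlier results of these data known. Of the genes with 1 to 20 counts, 75.1% to 92.0% per library had even counts, so 95% Wilson intervals used halved counts. Reads carried no molecular identifiers, so intervals and the floor of 3 counts reflect counting error alone.

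Genes were filtered with filterByExpr (minimum count 10, minimum total 15), scaled by TMM and tested with edgeR 4.0.16 quasi-likelihood fits in R 4.3.3, with a mean per group over all 8 libraries (4 residual degrees of freedom), 2-sided, with Benjamini-Hochberg adjustment over the 12997 genes tested. The fit was tested on simulated data. Library shares were compared by exact permutation tests (scipy 1.17.1). V usage was thinned to 371 V counts per library in 1000 draws. Alternatives included DESeq2 1.42.0, limma-voom (limma 3.58.1), other scalings and filters, a replicate block and each library left out. The named genes were all constant and J members, the 12 V segments with the highest mean share, the 3 leading V segments of each library, members called by edgeR, up to 4 called genes of each list, and all genes of the partner and rearrangement lists, some of which are not reported here. Other members are named as chosen by their values.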

Additional observations from a re-analysis of the deposited data

How the results depend on the processing

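With 1 CC library left out, Smarca4+/- CC minus Smarca4+/+ CC ran from -0.0732 to -0.0610 percentage points for the light chain share, from 6.89 to 19.1 for the effective number of V segments and from -13.6 to -7.14 points for the Igkv1-117 share. Since these groups do not overlap, their signs could not change, and the ranges say nothing of stability. The shares and effective numbers whose direction turned were from groups whose libraries overlapped. CC minus CB in Smarca4+/+ light chain share became -0.00250 points without ribosomal RNA and mitochondrial genes and -181 CPM as summed TMM CPM, with -0.00835 to 0.0237 points when 1 library was left out. CC minus CB in lambda share over both genotypes was 1.14 points, against 3.57 by V segments, 1.86 over V, J and C together and 0.901 per length. The genotype difference in lambda share became -1.24, -1.13 and -1.18 points by V segments, and -0.0951, -0.102 and -0.0987 points over V, J and C together, in CC, in CB and over both fractions. With 1 library left out it ran from -0.481 to 1.45 points in CB and from -0.00282 to 0.965 points over both fractions. The effective number in CC minus CB became -2.58 by Shannon index in Smarca4+/- mice, with -2.74 to 9.45 when 1 library was left out, and -5.44 to 0.656 over both genotypes. Its genotype difference in CB ran from -0.499 to 3.49. The top V share ran from -1.96 to 2.64 points for genotype in CB and from -6.21 to 0.102 points for CC minus CB in Smarca4+/- mice. The excess of V usage distance between genotypes in CC over that in CB was 0.331, against 0.229 at equal counts and 0.442 as 1 minus Spearman's correlation.

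Counts of members called depended on the tool and the filter. Between genotypes in CC edgeR called 0, against 1 with scaling to summed light chain counts, 4 with no filter on low counts and 6 by DESeq2. For CC against CB in Smarca4+/+ mice it called 1, against 5 without the filter, 7 with DESeq2, 0 with limma-voom, 0 with only the groups compared and 0 to 3 with 1 library left out. In Smarca4+/- mice it called 2, against 1 with total count scaling, 0 with light chain scaling, 5 without the filter, 6 with DESeq2, 1 with limma-voom, 1 with CB thinned to the CC depth, 0 with only the groups compared and 0 to 5 with 1 library left out. The interaction had 0, against 1 without the filter and 4 with DESeq2. The cause of these differences was not tested. Scaled to summed light chain counts, the log2 difference turned to 0.0257 for Igkc between genotypes in CC, 0.0238 for Igkc in the interaction and 0.0202 for Spib between fractions in Smarca4+/- mice. With TMM the median of all genes was -0.19 for CC against CB in Smarca4+/+ mice and -0.08 in Smarca4+/- mice, and with RLE scaling it was -0.07 and 0.03.

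With the replicate block edgeR called 0 members between genotypes in CB, 0 in CC, 1 and 2 between fractions in Smarca4+/+ and Smarca4+/- mice and 0 in the interaction, as without it. Within 1 genotype, the replicate block gave 1 and 3. Deviations of libraries of the same number from their group means were compared over 12997 genes. Between CB and CC of 1 genotype r was 0.053 in Smarca4+/- and 0.010 in Smarca4+/+ mice, and between other groups -0.046 to 0.026. Counting error at the CC depth can hide shared deviations, so these values do not settle whether libraries were paired. Replicate 1 had the lower ribosomal RNA share and the higher Iglc1 share of lambda constant counts in all 4 groups. Whether the numbers mark a shared preparation is not given in the labels. Depth limits the CC results: a CC library held 371 to 571 V counts and 19 to 49 kappa J counts.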
